A study of Mus musculus with 8 samples.

Results

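The genes described here are 39 effector genes that interferon switches on, taken as named rows of a table of 23284 gene entries. They were chosen by name as known antiviral and other interferon-stimulated genes, with earlier results of these data known. All 39 were in the table, all 39 passed the filter on low counts, and their reads ran from 87 to 5916 per gene and library, so none was absent or near 0. RNA was sequenced from hematopoietic stem and progenitor cells (HSPC), sorted from mouse bone marrow at 2000 cells per sample. One group of 4 libraries is labelled Hdc-/- on a C57BL/6 background, and the other group of 4 is labelled C57BL/6 wild type (WT). Hdc encodes histidine decarboxylase, which makes histamine. The sources used here do not give the age or sex of the mice, a treatment, the deleted part of Hdc or the surface markers of the sort. Nor is it stated whether each sample was a different mouse, so the spread behind the p-values may be technical.

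Interferons bind receptors on the cell surface, whose kinases activate STAT proteins. With type I interferon, STAT proteins join IRF9 into a complex that binds a short DNA element, the interferon-stimulated response element (ISRE), upstream of many genes. The products of these genes sense viral RNA and DNA, block translation, degrade RNA, modify proteins with the ubiquitin-like ISG15 or with ADP-ribose, and hold back the release of virus. In bone marrow, type I interferon is known to drive stem cells out of quiescence, and stem cells are known to express a set of these genes without infection.

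Letters that match the core of this element stand before annotated starts of some of the 39 genes. RefSeq (GRCm38.p6) gave the 250 bases before each annotated start of 29 of them, and these were searched on both strands for the ISRE core GAAANNGAAA, in which N is any base. Matches were found in 9 of the 29 (31.0%), against 331 of the 10297 tested genes with such a sequence (3.21%). They are printed 5′ to 3′ on the strand of the gene with up to 25 bases to each side, because they show the letters that the genes share. Capitals mark the matches, which read TTTCNNTTTC where the core lies on the other strand, and overlapping matches run together.
Isg15 (chr4:156200850-156200921, minus strand): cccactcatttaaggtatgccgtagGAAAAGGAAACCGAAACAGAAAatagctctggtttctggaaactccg
Ifit1 (chr19:34640760-34640838, plus strand): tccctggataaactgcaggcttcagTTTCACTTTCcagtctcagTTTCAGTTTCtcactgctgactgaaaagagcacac
Ifit3 (chr19:34583348-34583441, plus strand): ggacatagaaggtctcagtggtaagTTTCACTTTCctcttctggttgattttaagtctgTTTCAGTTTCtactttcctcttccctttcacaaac
Oas1a (chr5:120907526-120907570, minus strand): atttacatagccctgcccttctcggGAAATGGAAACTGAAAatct
Oas1g (chr5:120887614-120887656, minus strand): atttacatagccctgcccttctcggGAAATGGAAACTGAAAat
Oas3 (chr5:120777700-120777759, minus strand): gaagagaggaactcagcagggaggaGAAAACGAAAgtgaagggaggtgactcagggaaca
Bst2 (chr8:71537562-71537627, minus strand): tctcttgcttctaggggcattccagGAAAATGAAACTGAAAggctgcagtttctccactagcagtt
Rsad2 (chr12:26456538-26456597, minus strand): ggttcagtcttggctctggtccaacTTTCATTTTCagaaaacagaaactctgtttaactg
Trim30a (chr7:104465195-104465254, minus strand): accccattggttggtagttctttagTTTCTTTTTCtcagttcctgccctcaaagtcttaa
The stretch of Trim30a lies before 1 of its 2 annotated starts. An annotated start can lie inside the span of its gene: the stretch of Ifit3 lies within that span, and the stretch of Oas1a reaches into it. Isg15 held 3 overlapping matches, the nearest starting 66 bases before the gene. Ifit1 and Ifit3 each held 2 separate matches, and both held the letters TTTCACTTTC followed by TTTCAGTTTC. The 43 bases shown for Oas1g also stand within the stretch shown for Oas1a, its neighbour and close copy. A second element, TTCNNNGAA, which STAT pairs bind in the response to interferon gamma and which reads alike on both strands, was found in 4 of the 29 (13.8%) and in 7.22% of the tested genes. A match is a description of the letters, and the positions are those of GRCm38.p6, while the counts were made on mm9.

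The counts summed to 16327004 to 19780135 reads per library. Hdc itself went against the labels, with 740 to 875 reads in the libraries labelled Hdc-/- and 199 to 275 in WT, and the counts do not separate RNA of an altered allele. Every direction below therefore rests on the labels. HSPC markers were present in all libraries: the summed level of 11 of them, among them Kit and Cd34, was 4500 to 5071 CPM (reads scaled to 1000000 per library) in WT and 5061 to 5222 CPM in the libraries labelled Hdc-/-. Of these markers Ly6a, which encodes the stem cell surface marker Sca-1 and is itself known to be induced by interferon, fell by 1.15 on the log2 scale (adjusted p = 7.6e-08), and Flt3 rose. WT 1 stood apart from the other WT libraries: its chi-square statistic per gene against them was 23.5 to 27.7, and 6.84 to 11.7 in the other pairs within a group. Kit was 806 CPM in WT 1 and 1269 to 1345 CPM in the other WT libraries, while Cd34 was 1377 CPM and 1323 to 1412 CPM. The summed level of the neutrophil markers given below was 4071 CPM in WT 1 and 2644 to 3137 CPM in the other WT libraries. One library labelled Hdc-/- carries no sample number in its column name and is called unnumbered. Where values of every library are given, those labelled Hdc-/- come in the order 1, 2, 3 and unnumbered, and those of WT from 1 to 4.

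The effector genes were lower in the libraries labelled Hdc-/-. Of the 39, 36 fell and none rose at an adjusted p under 0.05 in edgeR's quasi-likelihood test over 13005 genes. The genes were chosen with such results in view, so this count is no independent evidence of the direction. Over all genes tested, 2.71% fell and 2.05% rose. No member had a positive fold change, so the count that rose was also 0 at an unadjusted p under 0.05, and it was 0 in DESeq2 and in limma-voom. Without WT 1, 37 fell. In 37 of the 39, all 4 libraries labelled Hdc-/- lay below all 4 WT libraries, and in none above, where 6.88% of all tested genes lay below in this way and 5.64% above. The median log2 fold change was -0.50, with a range of -1.35 to -0.06, beside a median of 0.00 over all tested genes. The fitted fall was over 50% in 11 members, 25% to 50% in 14 and under 25% in 14. Of the 39, 36 were among the lowest 10% of all fold changes. In bulk samples, fewer cells that hold an RNA and less of that RNA per cell cannot be told apart.

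**Figure D1:**
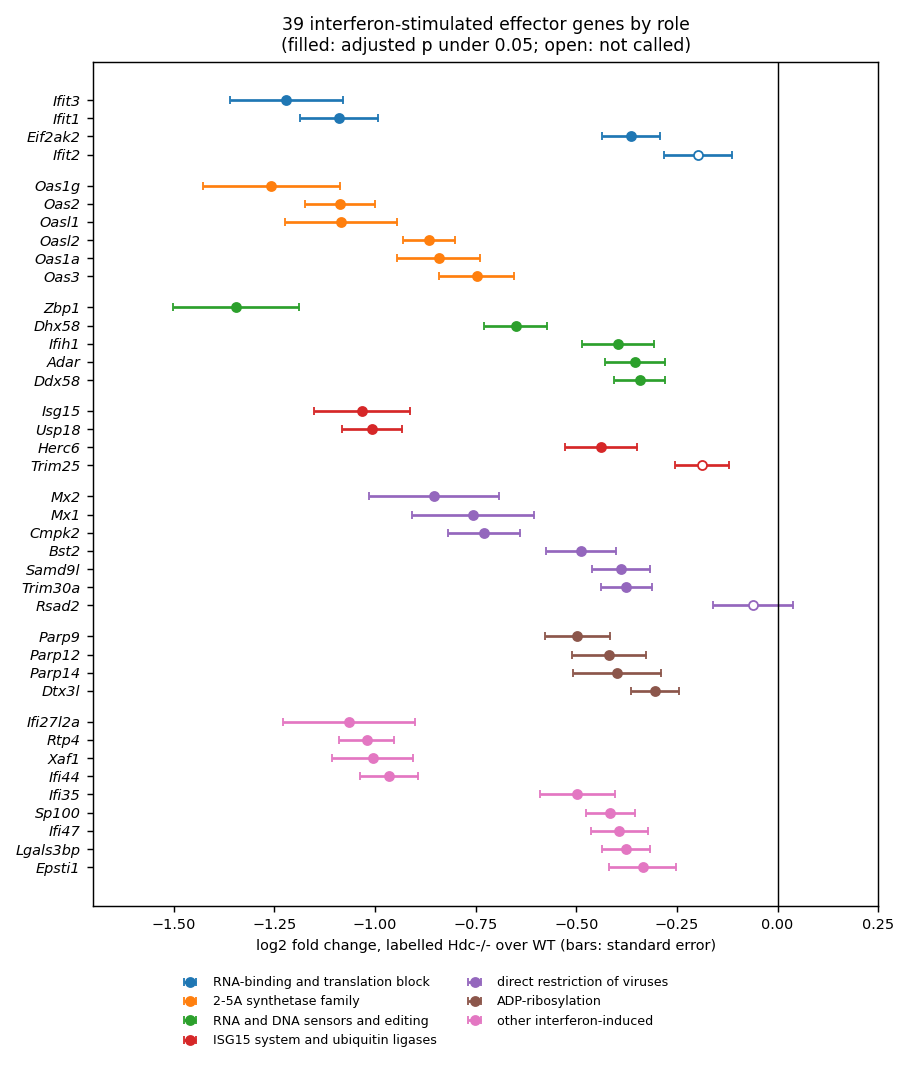
Log2 fold change (x axis, labelled Hdc-/- over WT) of the 39 genes, grouped by role and coloured by group, with standard errors as bars; filled points passed at an adjusted p under 0.05 and open points did not. Every point lies left of 0, from -1.35 for Zbp1 to -0.06 for Rsad2, and the 3 open points are Ifit2, Trim25 and Rsad2.

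All 6 tested members of the oligoadenylate synthetase family fell. Proteins of this family are known for detecting long RNA duplexes in the defence against viruses. Oasl2, which carries a ubiquitin-like tail, measured 173, 177, 187 and 158 CPM in the libraries labelled Hdc-/- and 326, 334, 303 and 302 CPM in WT. The groups were far apart, with WT 1 and WT 2 the highest (log2 fold change -0.87, SE 0.06, adjusted p = 2.0e-07). Oas2 measured 70.6, 79.1, 84.6 and 70.9 CPM in the libraries labelled Hdc-/- and 139, 181, 161 and 167 CPM in WT, where WT 1 was the lowest of its group and still well above every library labelled Hdc-/- (log2 fold change -1.09, SE 0.09, adjusted p = 4.7e-07). Oas1g had the largest fall of the family, -1.26 (SE 0.17), and measured 13.6 ± 1.73 CPM in WT and 5.69 ± 1.05 CPM in the group labelled Hdc-/- (SD, n = 4). Oasl1, at -1.08 (SE 0.14), Oas1a, at -0.84 (SE 0.10), and Oas3, at -0.75 (SE 0.09), completed the family. Oas1a and Oas1g are close copies, so how reads were divided between them is uncertain.

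Of the 3 Ifit genes 2 passed the test. Their proteins bind viral RNA and stop its translation. Ifit1, which recognises RNA caps that lack a methyl group, measured 41.2, 38.9, 40.0 and 46.5 CPM in the libraries labelled Hdc-/- and 92.7, 103, 79.8 and 79.4 CPM in WT (log2 fold change -1.09, SE 0.10, adjusted p = 1.5e-06). Ifit3, which in human cells stabilises IFIT1, measured 10.2, 10.9, 10.6 and 8.53 CPM in the libraries labelled Hdc-/- and 24.1, 28.3, 21.9 and 19.7 CPM in WT (log2 fold change -1.22, SE 0.14, adjusted p = 3.4e-05). In both genes WT 2 was highest and the groups lay far apart. Ifit2, which lies beside Ifit3, measured 61.9, 56.5, 57.4 and 54.6 CPM in the libraries labelled Hdc-/- and 57.6, 67.9, 67.3 and 71.2 CPM in WT, and did not pass (log2 fold change -0.20, SE 0.08, adjusted p = 0.219). Its groups overlapped because WT 1, at 57.6 CPM, lay among the libraries labelled Hdc-/-. Without WT 1 it passed (log2 fold change -0.26, adjusted p = 0.0437). Eif2ak2 encodes PKR, the kinase that halts translation on binding RNA duplexes, and fell by 22.3%, from 133 ± 10.5 to 103 ± 3.80 CPM (SD, n = 4).

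All 5 sensors and editors of nucleic acid fell, by unequal amounts. Zbp1, which senses left-handed nucleic acid and can start cell death, had the largest fall of the 39 genes. It measured 15.2, 11.2, 12.3 and 9.63 CPM in the libraries labelled Hdc-/- and 22.9, 33.8, 31.8 and 34.5 CPM in WT (log2 fold change -1.35, SE 0.16, adjusted p = 3.4e-05). WT 1 was the lowest of the WT libraries, at 22.9 CPM, and lay above the highest library labelled Hdc-/-. Dhx58 encodes LGP2, a relative and regulator of the other RNA helicase sensors, and measured 59.8, 64.3, 63.7 and 71.9 CPM in the libraries labelled Hdc-/- and 104, 97.5, 97.8 and 108 CPM in WT (log2 fold change -0.65, SE 0.08, adjusted p = 4.2e-05). The fitted falls of those other sensors were smaller, a difference that was not tested: Ddx58, the gene of RIG-I, fell by 21.2%, and Ifih1, the gene of MDA5, by 24.0%. Adar, which edits adenosines in RNA duplexes and so keeps MDA5 from reading the cell's own RNA, fell by 21.8%. The calls of Ddx58, Ifih1 and Adar were lost in 1, 3 and 2 of the 15 alternatives tried. Zbp1 and Ifih1 lie on chromosome 2, as Hdc does, and the 39 genes are spread over 14 chromosomes.

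Genes at both ends of the ISG15 cycle fell. Isg15, which encodes the ubiquitin-like protein itself, measured 21.1, 22.4, 19.3 and 18.0 CPM in the libraries labelled Hdc-/- and 48.9, 42.3, 40.3 and 33.8 CPM in WT (log2 fold change -1.03, SE 0.12, adjusted p = 3.4e-05). Usp18, which removes ISG15 and also dampens the type I receptor, measured 69.3, 63.9, 68.5 and 65.0 CPM in the libraries labelled Hdc-/- and 143, 143, 127 and 123 CPM in WT (log2 fold change -1.01, SE 0.07, adjusted p = 1.9e-07). Neither gene's groups overlapped, and WT 1 was the highest library in both. Herc6, the main ligase that attaches ISG15 in the mouse, fell by 26.2% (adjusted p = 0.00684), a call lost in 2 alternatives. Trim25, a ubiquitin ligase that helps RIG-I signal, measured 119, 125, 114 and 110 CPM in the libraries labelled Hdc-/- and 125, 130, 135 and 142 CPM in WT and did not pass (log2 fold change -0.19, SE 0.07, adjusted p = 0.134). Its groups did not overlap, but library 2 labelled Hdc-/- and WT 1 lay almost level. Without WT 1 it passed (log2 fold change -0.22, adjusted p = 0.0426).

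Of the 7 genes that act on viruses directly 6 fell, and Rsad2 did not pass. Rsad2 encodes viperin, which makes a nucleotide that ends RNA chains, and Cmpk2, its neighbour, encodes a mitochondrial kinase that is thought to supply it. Cmpk2 measured 69.0, 72.7, 74.9 and 69.3 CPM in the libraries labelled Hdc-/- and 96.9, 133, 125 and 119 CPM in WT, with WT 1 lowest of its group (log2 fold change -0.73, SE 0.09, adjusted p = 5.7e-05). Rsad2 measured 51.8, 64.4, 65.1 and 63.9 CPM in the libraries labelled Hdc-/- and 64.2, 74.4, 59.6 and 57.4 CPM in WT, and the groups overlapped (log2 fold change -0.06, SE 0.10, adjusted p = 0.804). The GTPase genes Mx1 and Mx2 fell by 40.8% and 44.6%, from 21.0 ± 3.73 and 12.1 ± 1.36 CPM in WT (SD, n = 4). C57BL/6 mice are known to carry a defective Mx1 gene, so its RNA there does not stand for working protein. Bst2, the gene of tetherin, which ties budding virus to the cell, fell by 28.7%, and Samd9l, which restrains poxviruses and cell growth, by 23.7%. Trim30a, a ubiquitin ligase of a family with close copies, measured 187, 214, 190 and 189 CPM in the libraries labelled Hdc-/- and 269, 243, 252 and 248 CPM in WT (log2 fold change -0.38, SE 0.06, adjusted p = 0.00131). Its 4 WT libraries lay together, and library 2 was the highest of those labelled Hdc-/-.

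**Figure D2:**
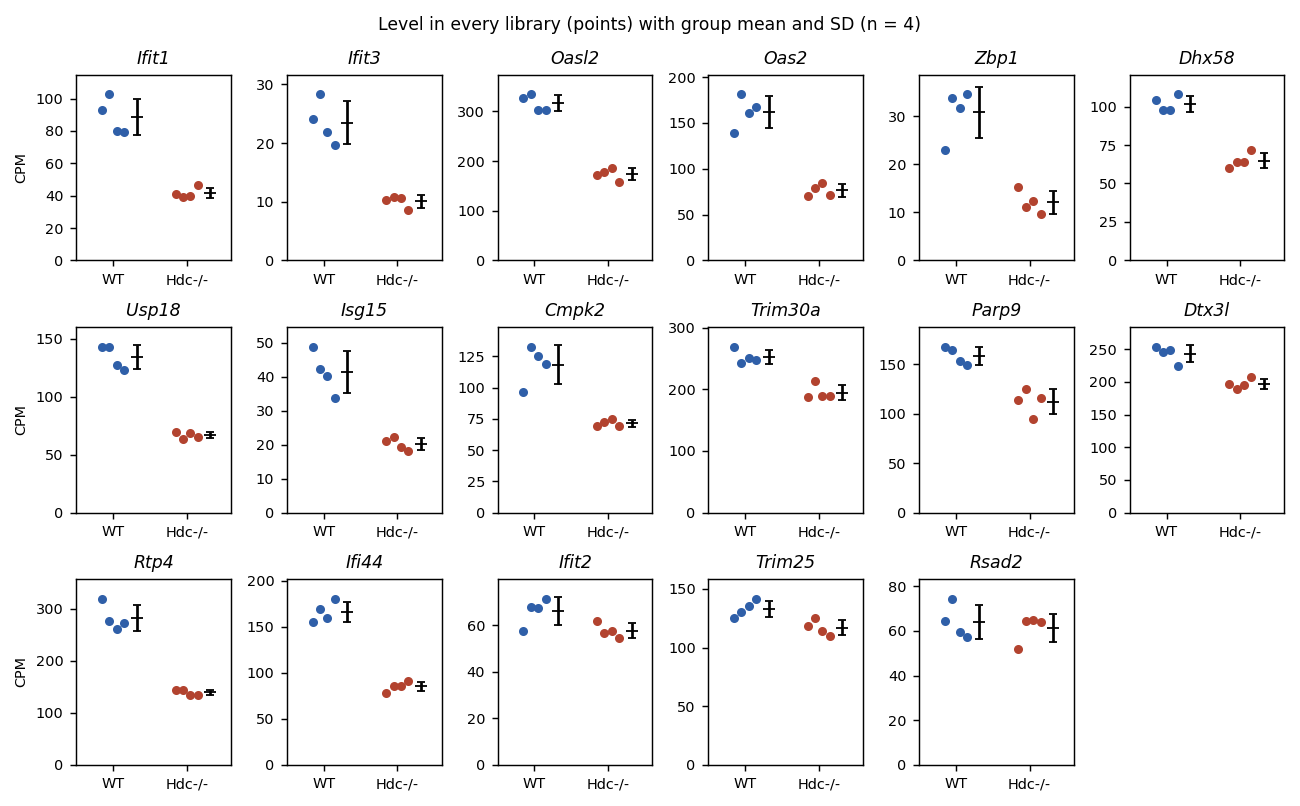
Level in CPM (y axis, from 0) of 17 members in each of the 8 libraries, WT in blue and labelled Hdc-/- in red, with the mean and SD of each group (n = 4) in black; the first 14 have the smallest p of their role groups and the last 3 did not pass. The groups lie apart in the first 14 and overlap in Ifit2 and Rsad2.

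The 4 genes of ADP-ribosylation fell, by 19.0% to 29.2%. Parp9 and Dtx3l encode partners in one enzyme complex and start next to each other. Parp9 measured 114, 124, 94.6 and 116 CPM in the libraries labelled Hdc-/- and 168, 164, 153 and 149 CPM in WT (log2 fold change -0.50, SE 0.08, adjusted p = 0.000997). Dtx3l measured 196, 189, 195 and 207 CPM in the libraries labelled Hdc-/- and 254, 246, 248 and 224 CPM in WT (log2 fold change -0.30, SE 0.06, adjusted p = 0.00571). Neither gene's groups overlapped, and library 3 was the lowest of all in Parp9. Their annotated spans overlap, so reads at that end are uncertain. Parp12 and Parp14 encode other ADP-ribosyltransferases. Parp12 fell by 25.2% and Parp14 by 24.1%. WT split in Parp14, with 102 and 98.2 CPM in WT 1 and WT 3 and 73.0 and 70.5 CPM in WT 2 and WT 4. Its adjusted p was 0.0467, and the call was lost in 8 of the 15 alternatives, over which the adjusted p ran from 0.0158 to 0.137.

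All 9 remaining genes fell, in 2 tiers that were seen in the values and not tested. In the upper tier, Rtp4, known to bind viral RNA and to restrain some viruses, measured 143, 144, 134 and 134 CPM in the libraries labelled Hdc-/- and 319, 275, 261 and 273 CPM in WT, with the smallest p of the 39 genes (log2 fold change -1.02, SE 0.07, adjusted p = 6.6e-08). Ifi44 measured 78.4, 85.5, 85.7 and 91.3 CPM in the libraries labelled Hdc-/- and 156, 170, 159 and 181 CPM in WT (log2 fold change -0.97, SE 0.07, adjusted p = 2.0e-07). Every WT value of these genes was far above every value labelled Hdc-/-. Xaf1, which counters an inhibitor of cell death, fell by 50.2%, and Ifi27l2a by 52.2%, with WT values of Ifi27l2a spread from 17.6 to 32.4 CPM. The lower tier held Ifi35 and 4 others. Log2 fold changes there were -0.50 (SE 0.09) for Ifi35, -0.42 (SE 0.06) for Sp100, a nuclear body protein gene, -0.39 (SE 0.07) for Ifi47, a GTPase gene, -0.38 (SE 0.06) for Lgals3bp, which encodes a secreted galectin-binding protein, and -0.34 (SE 0.08) for Epsti1. The call of Epsti1 was lost in 6 of the 15 alternatives, over which the adjusted p ran from 0.00444 to 0.101.

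Neighbouring genes were set against each other within each library, which removes any scaling between libraries. There were 12 pairs of members within 100 kb of each other in RefSeq (GRCm38.p6), and the ratio of levels was compared between groups by an exact permutation test, two-sided, whose smallest possible p with 4 against 4 is 0.0286. The pairs were formed after the fold changes were known. In 4 pairs the groups did not overlap, each at an exact p = 0.0286, and adjusted over the 12 pairs this was 0.0857. Given that smallest p, an adjusted value under 0.05 would need most of the 12 pairs to separate. The adjusted value therefore cannot decide about a single pair, and some pairs share a gene. For Ifit2 over Ifit3 the log2 ratio of CPM was 1.50 ± 0.292 in WT and 2.52 ± 0.141 in the other group (SD, n = 4). All 4 libraries labelled Hdc-/- lay above the highest WT value, and the means differed by 1.02 on the log2 scale. For Rsad2 over Cmpk2 it was -0.89 ± 0.223 in WT and -0.23 ± 0.130 in the libraries labelled Hdc-/-, and for Oas2 over Oas3 it was 0.51 ± 0.0712 and 0.16 ± 0.163. Ifit1 over Ifit2 was the other pair. Between Ifit1 and Ifit3 and between Mx1 and Mx2 the ratios overlapped, with exact p = 0.543 and 0.686.

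**Figure D3:**
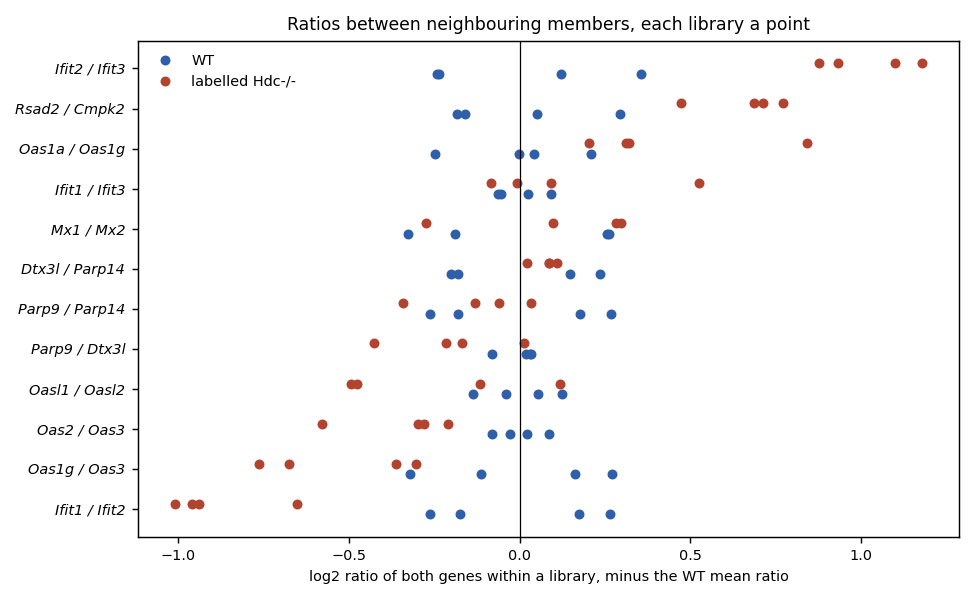
Log2 ratio of levels of 2 neighbouring members within each library, minus the mean WT ratio of that pair (x axis), for 12 pairs (y axis); WT libraries are blue and those labelled Hdc-/- red. The groups lie apart for Ifit2 / Ifit3, Rsad2 / Cmpk2, Oas2 / Oas3 and Ifit1 / Ifit2, and overlap in the other 8 pairs.

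Levels per length placed the genes in order. Mean CPM were divided by the bases covered by exons in GENCODE M21, which is not the annotation of the counts. In WT the highest was Rtp4, at 132 ± 11.9 CPM per kb (SD, n = 4), followed by Lgals3bp at 118 ± 6.62, Ifi47 at 112 ± 9.77 and Bst2 at 111 ± 12.9 CPM per kb. Neighbours among these 4 differed by no more than the larger of their SDs, except Rtp4 and Lgals3bp, which differed by little more. The lowest were Oas1g at 5.82 ± 0.737, Mx1 at 5.55 ± 0.985 and Mx2 at 3.33 ± 0.375 CPM per kb. In the libraries labelled Hdc-/- Rtp4 stood at 65.2 ± 2.48 CPM per kb, below Lgals3bp at 90.8 ± 4.90, Ifi47 at 85.2 ± 6.49 and Bst2 at 79.0 ± 5.31 CPM per kb. Among the 29 genes with an upstream sequence, the 9 with an ISRE core had a median log2 fold change of -0.84 (range -1.26 to -0.06) and the 20 without had -0.39 (range -1.08 to -0.19). The ranges overlap, Rsad2 is among the 9, and this is a description of chosen genes with no test. Oas1a and Oas1g, which share a stretch, count as 2 of the 9. The other 10 genes had no such sequence and are left out: Dhx58, Ifi27l2a, Mx1, Mx2, Oas2, Parp14, Parp9, Rtp4, Usp18 and Zbp1. Zbp1 had the largest fall of all members, so the medians might differ with these genes included.

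Spread within groups was small. The SD of a gene's level was 1.04% to 22.2% of the mean in the libraries labelled Hdc-/- (median 7.62%) and 4.59% to 25.4% in WT (median 8.98%), and it was larger in WT in 27 of the 39 genes. The summed level of the 39 was 4898 ± 139 CPM in WT and 3337 ± 35.1 CPM in the other group (SD, n = 4), 31.9% lower. No WT library led throughout: WT 1 was the highest WT library in 14 genes and the lowest in 14, while WT 2 was highest in 17 and lowest in 2.

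Marker genes of some other cell types moved with the group, and the summed levels of other lists overlapped between groups. Of 10 neutrophil markers all 10 fell, and their summed level was 805 to 1408 CPM in the libraries labelled Hdc-/- and 2644 to 4071 CPM in WT. Between the highest and the lowest library, the neutrophil sum differed 1.75-fold in the group labelled Hdc-/- and 1.54-fold in WT. The sum of the 39 genes differed 1.02-fold and 1.07-fold. Whether these sums are linked was not tested. B cell markers fell in 6 of 7 tested in edgeR and in all 7 in DESeq2, summing to 141 to 153 CPM against 207 to 269 CPM in WT, and Pax5 held at most 19 reads. Cd79b, which edgeR did not call (log2 fold change -0.27), was the largest part of that sum, at a mean of 93.8 CPM against 113 CPM. All 5 tested red cell markers rose, with 409 to 440 CPM against 87.3 to 98.4 CPM, while Hba-a1 and Hbb-b1 held at most 1 read. The counting mode is not given, so these low counts do not show that globin RNA was absent. Fech was the largest part of the red cell sum, at a mean of 188 CPM against 87.6 CPM, while Alas2 stood at 153 CPM against 4.16 CPM. Of 4 tested basophil and mast cell markers 2 fell in edgeR and limma-voom, all 4 had an unadjusted p under 0.05 in edgeR, and DESeq2 called Cpa3 lower as well. DESeq2 also called Fcer1a lower, which did not pass the low-count filter. Fcer1a held 0 reads in every library labelled Hdc-/- and 2 to 33 in WT. The sum over the list was 16.7 to 24.3 CPM against 89.4 to 142 CPM. Plasmacytoid dendritic cells, a known source of type I interferon, had no marker that fell in edgeR or limma-voom, while DESeq2 called 1, Spib, lower, the 1 marker with an unadjusted p under 0.05 and a negative fold change in edgeR. Of the 6 tested markers of this list Ccr9 rose in edgeR, the sum was 304 to 349 CPM against 263 to 305 CPM, and Klk1 held at most 4 reads. Tcf4 made up most of that sum, at a mean of 296 CPM against 259 CPM, so the sum says little about the other markers. Monocyte and macrophage markers summed to 140 to 171 CPM against 157 to 170 CPM, with Ly6c2 lower in edgeR among 11 tested. DESeq2 called Ly6c2 lower and 3 others, Vcam1, Cd163 and Cd5l, higher, and these 3 had an unadjusted p under 0.05 in edgeR. T and NK cell markers, with Nkg7 lower among 3 tested, summed to 270 to 282 CPM against 335 to 427 CPM, and Cd3e held at most 4 reads. Nkg7 made up most of that sum, at a mean of 267 CPM against 352 CPM. Endothelial and stromal markers summed to 127 to 145 CPM against 123 to 139 CPM, most of it Pecam1, at a mean of 132 CPM against 129 CPM. None of 3 tested passed in edgeR. There Cxcl12, with a positive fold change, had an unadjusted p under 0.05, and it was called by both DESeq2 and limma-voom (1 gene in each). The part of these cell types in the fall of the effector genes was not tested.

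**Figure D4:**
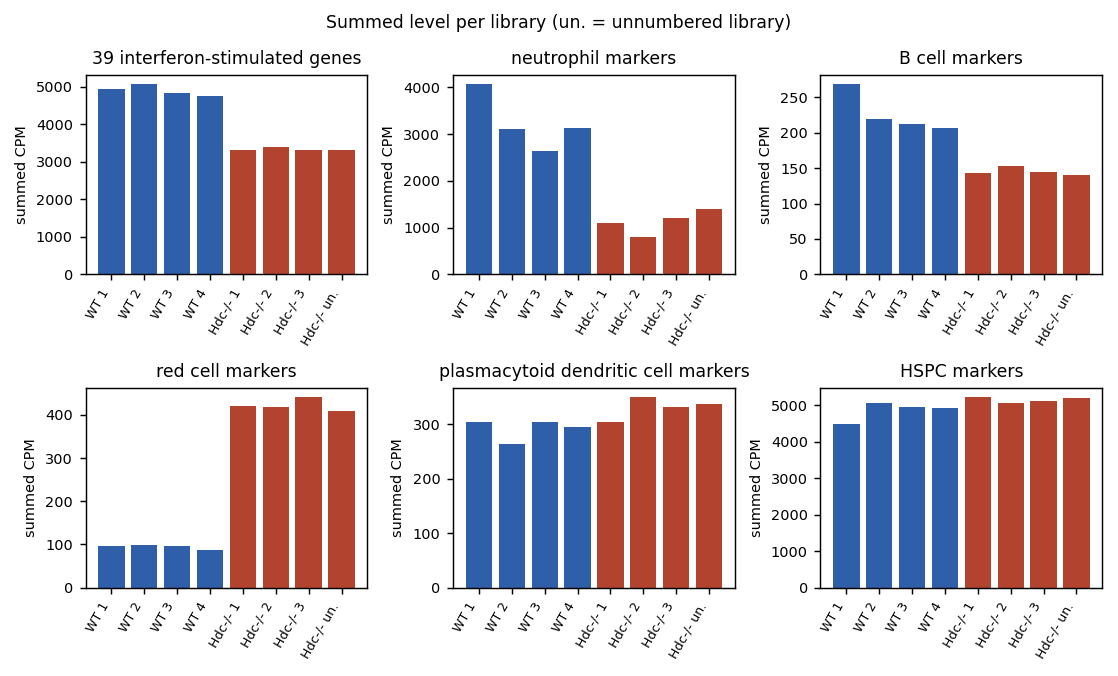
Summed level in CPM (y axis, from 0) of the 39 effector genes and of 5 marker lists in each library (x axis), WT in blue and labelled Hdc-/- in red. The effector genes, neutrophil and B cell markers are lower in every library labelled Hdc-/-, the red cell markers are higher, and among these 6 panels the neutrophil sums vary most within a group.

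Among other genes of the interferon pathway, 2 of the 28 tested passed in edgeR. The list held 39 genes, of which 28 could be tested: 2 fell and none rose in edgeR, with 5 and 1 at an unadjusted p under 0.05. The calls were the same in limma-voom, and DESeq2 called 4 lower and 1 higher. Over all tested genes in edgeR, 2.71% fell, 2.05% rose and 18.7% had an unadjusted p under 0.05 in either direction. Both pathway genes that fell in edgeR encode transcription factors. Whether their fall is linked to that of the effector genes, in either direction, was not tested. Irf7, which amplifies type I interferon, measured 62.5, 62.8, 61.9 and 60.6 CPM in the libraries labelled Hdc-/- and 114, 132, 118 and 141 CPM in WT (log2 fold change -1.02, SE 0.08, adjusted p = 3.2e-07). Irf9, which brings STAT proteins to the ISRE, measured 169, 176, 178 and 154 CPM in the libraries labelled Hdc-/- and 233, 229, 222 and 230 CPM in WT (log2 fold change -0.44, SE 0.06, adjusted p = 2.4e-04). The groups did not overlap in Irf7 or Irf9, and Stat2, a partner of Irf9, did not pass in edgeR (log2 fold change -0.30, SE 0.08, adjusted p = 0.0526) or limma-voom but was called lower by DESeq2. None of 8 tested receptor and kinase genes passed in edgeR or limma-voom (2 at an unadjusted p under 0.05 in edgeR), while DESeq2 called Ifngr2 lower and Jak1 higher. In edgeR the smallest p in that list belonged to the receptor chain gene Ifngr2 (log2 fold change -0.29, SE 0.09, adjusted p = 0.0651) and the kinase gene Jak1 (log2 fold change 0.19, SE 0.06, adjusted p = 0.0690), which lay on opposite sides of 0. No gene of 7 tested sensor adaptors and kinases or of 5 brakes on signalling passed in edgeR, DESeq2 or limma-voom, and 0 had an unadjusted p under 0.05 in edgeR. The smallest p in these lists belonged to the kinase genes Ikbke and Tbk1, with log2 fold changes of 0.19 (SE 0.10) and 0.08 (SE 0.08), and to the phosphatase genes Ptpn11 and Ptpn6, with -0.21 (SE 0.12) and -0.06 (SE 0.06). Usp18, which also dampens the type I receptor, was counted with the effector genes and not with the brakes, and it fell (log2 fold change -1.01). The 9 interferon genes of the list, among them Ifnb1, Ifna4 and Ifng, had at most 5 reads in any library, and 6 had none in all 8, so no interferon RNA could be compared at this depth. None of 6 housekeeping genes passed in edgeR, DESeq2 or limma-voom, and 1, Gapdh, had an unadjusted p under 0.05, at a log2 fold change of 0.36 (SE 0.17). Gapdh held few reads, at a mean of 7.92 CPM in WT and 10.2 CPM in the libraries labelled Hdc-/-, where Actb stood at 3014 and 3208 CPM.

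**Figure D5:**
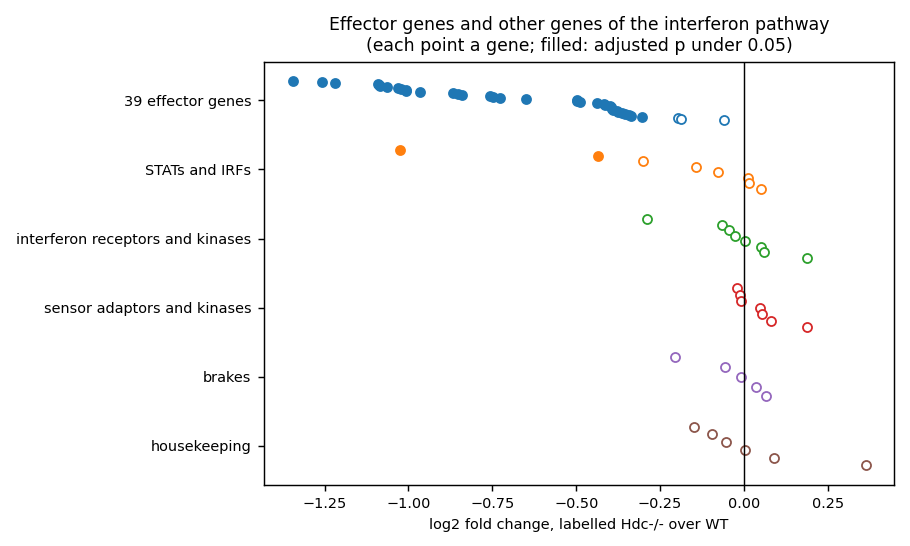
Log2 fold change (x axis, labelled Hdc-/- over WT) of the 39 effector genes, of the tested genes of 4 other lists of the interferon pathway and of 6 housekeeping genes (y axis), each point a gene; filled points passed at an adjusted p under 0.05. Filled points outside the effector genes are Irf7 and Irf9, and the open points of those lists lie between -0.30 and 0.36.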

How the data were processed

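RNA of 8 HSPC samples was sequenced, 4 labelled Hdc-/- and 4 WT. Per the labels' protocols, a PicoPure kit was used for extraction, a SMARTer kit for cDNA and Nextera XT, which does not mark strand, for the libraries. The submitters' processing notes name TopHat2 2.0.4 with Bowtie2, HTSeq 0.6.1, bcl2fastq 1.8.4 and build mm9. No annotation or counting mode is given in those sources. The deposited values are raw counts of reads per gene symbol, with no molecular identifiers, so counting error understates the uncertainty.

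Columns were matched to samples by name. Of 23284 entries, 2 are labelled only with a number and were left out (at most 0.0320% of reads). Genes passing filterByExpr (minimum count 10, minimum total 15) were tested with edgeR 4.0.16 in R 4.3.3 (TMM scaling, robust quasi-likelihood test, two-sided, no covariate, Benjamini-Hochberg over 13005 genes). Fold changes are labelled Hdc-/- over WT, SE is the size of that change over the root of the F statistic, and CPM follow TMM scaling. DESeq2 1.42.0, limma-voom 3.58.1 and other alternatives are in the closing section. Gene names and promoters came from RefSeq (GRCm38.p6). Values in every library are given for the 2 members with the smallest p in each of 7 role groups and for members that did not pass, and other members by summary. In the pathway lists the 2 tested genes with the smallest p in each are named, and others named were chosen after their values were seen. Members and lists were chosen with earlier results of these data known. The count columns left unused numbered 0. Mb21d1, Ifnlr1, Adgre1, Trac and Ahsp were listed but not analysed here, and the lists are counted without some genes not reported here.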

Additional observations from a re-analysis of the deposited data

Results flagged for a closer look

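A sample far from the other 3 of its group was looked for in 78 sets of 4 values, 39 genes in each of 2 groups, by the gap to the nearest value over the whole range (Dixon's 95% critical value for 4 samples). It was found in 2, where chance gives about 1 in 20. Rsad2 was 51.8 CPM in library 1 labelled Hdc-/-, and 63.9 to 65.1 CPM in the other 3. Trim30a was 214 CPM in library 2 labelled Hdc-/-, and 187 to 190 CPM in the other 3.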

How the results depend on the processing

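Over 15 alternatives the count of members that fell ran from 31 to 37, against 36, and no member rose in any. It was 36 with DESeq2 size factors, with no low-count filter and in DESeq2, and 35 with library totals only and in limma-voom. Leaving out 1 library gave 33 to 37, the highest without WT 1. Of the 36 called members 28 passed in every alternative. The other 8 (Parp14, Epsti1, Ifih1, Adar, Herc6, Samd9l, Ddx58 and Mx1) lost the call in 1 to 8 of them. No member was called in the other direction. No pairing by replicate number was seen among the libraries numbered 1 to 3. Deviations of libraries with the same number correlated at -0.06 to -0.02, and those with different numbers at -0.04 to 0.06. With so few libraries, this check cannot show that the samples were unpaired. With the replicate block, on the libraries numbered 1 to 3, 31 members fell, and 31 fell in the same 6 libraries without it, a setting chosen after seeing the data. The median log2 fold change of the members, -0.50, was -0.46 to -0.55 when 1 library was left out, -0.55 with the replicate block and -0.56 in the same 6 libraries without it. Of the pathway genes, 2 lower and 0 higher in edgeR, DESeq2 called 4 lower and 1 higher, and leaving out 1 library gave 2 to 3 lower and 0 to 1 higher, the 1 without WT 1. Without library 3 labelled Hdc-/-, WT 1 or WT 3 it was 3 lower. The causes of these shifts were not tested. Over all genes 267 rose and 352 fell in edgeR, against 432 and 493 in DESeq2, 122 and 189 with the replicate block, 132 and 211 in the same 6 libraries without it, and 135 to 378 and 240 to 432 when 1 library was left out. The rise count was under 267 by over 1.5 times when WT 2 (167) was left out or, of those labelled Hdc-/-, library 3 (135), the unnumbered one (152) or library 2 (172). The interferon genes themselves had too few reads to test.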
